A study of Mus musculus with 6 samples.

Results

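Cadherins and protocadherins are cell surface proteins with repeated extracellular cadherin domains. The members described here were the gene entries whose symbol was Cdh followed only by digits, or began with Pcdh. There were 94 of them among 23700 entries in each library, made up of 5 type I and 13 type II classical cadherins, 5 other cadherins, 12 non-clustered protocadherins, 14 entries of the alpha, 22 of the beta and 22 of the gamma protocadherin cluster, and 1 entry, Pcdha4-g, that spans the clusters from alpha to gamma.

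Classical cadherins bind like molecules on neighbouring cells in the presence of calcium, and their tails recruit beta-catenin and p120-catenin, which tie the junction to actin. Cdh11 (OB-cadherin) and Cdh2 (N-cadherin) are the classical cadherins best known from osteoblasts. Protocadherins lack that catenin-binding tail. The clustered ones are known above all from neurons, where each gene starts from its own promoter and first exon, and in the alpha and gamma clusters this exon is spliced to constant exons that all genes of the cluster share.

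The RNA came from IDG-SW3 cells, an immortalized mouse line from the long bones of animals that carried a Dmp1-GFP reporter and a temperature-sensitive T-antigen, so all samples share both transgenes and come from 1 line. The cultures were differentiated for 28 days in medium with ascorbic acid and beta-glycerophosphate, to a state with osteocyte characteristics. Control wells (n = 3) then received PBS and PTH wells (n = 3) 50 nM bovine PTH (1-34), the active fragment of parathyroid hormone, for 24 hours. The comparison asked how these cells respond to the hormone.

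Values are FPKM, that is sequenced fragments divided by transcript length and by library depth, so that levels of different genes can be set side by side per length. The fragments implied by the authors' bounds came to between 13958213 and 19043743 in the Control libraries and between 22479950 and 24481480 in the PTH libraries. By this measure every PTH library was deeper, and the part of this in the results was not tested. Of 11900 entries with a mean of at least 1 FPKM, limma called 73.8% at an adjusted p below 0.05, 50.3% higher and 23.5% lower with PTH. Their median change in log2(FPKM + 1) was 0.15. TPM, quantile normalization and median-of-ratios scaling moved that median to 0.091, 0.044 and 0.0026, and changes are read against it. Of 10 osteocyte and osteoblast markers 8 fell, Pdpn rose from 20.0 to 160 FPKM and Alpl was not called. The summed level of the 10 went from between 28488 and 29073 to between 5452 and 6348 FPKM. Most of the Control sum was Ibsp (mean 14703 FPKM) and Bglap (mean 11955 FPKM). Adipocyte markers fell in 6 of 6 tested cases (summed level 459.6 to 652.4 against 68.7 to 139.5 FPKM). Chondrocyte markers fell in 4 of 5 (184.2 to 204 against 54.6 to 68.3). Among these falls Sost, Cidec and Acan had PTH means of 0.094, 0.66 and 0.15 FPKM and passed the filter only through their Control values. Of 8 macrophage and osteoclast markers 3 were tested, 2 higher and 1 lower. Their sum was 261.7 to 274.7 FPKM in Control and 304.7 to 316.2 in PTH, most of it Ctsk. The part of these cell types in the results below was not tested. In RNA from whole wells, fewer cells of a type and less RNA per cell cannot be told apart.

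Most members were weakly expressed. The filter on the mean was passed by 25 of the 94, a further 60 lay below it with a value above 0 in some library, and 9 were listed at 0 in all 6 libraries. The members nearest to the filter were Pcdhb11, inside it at a mean of 1.06 FPKM, and Pcdh19, outside it at 0.983. Of the 25 tested members 8 were called higher (32%) and 5 lower (20%), against 50.3% and 23.5% of all entries, and 12 were not called. The groups did not overlap for 16 of the 25, 11 higher and 5 lower with PTH, against 53.2% and 25.1% of all entries. Cdh24 and Pcdhb11 had Control means below 1 FPKM and passed only through their PTH values. The summed FPKM of all 94 members, as deposited, was 421.4 to 428.2 in Control and 429.4 to 432.3 in PTH, a ratio of 1.01, while its parts moved apart. Median-of-ratios scaling would lower that ratio.

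**Figure D1:**
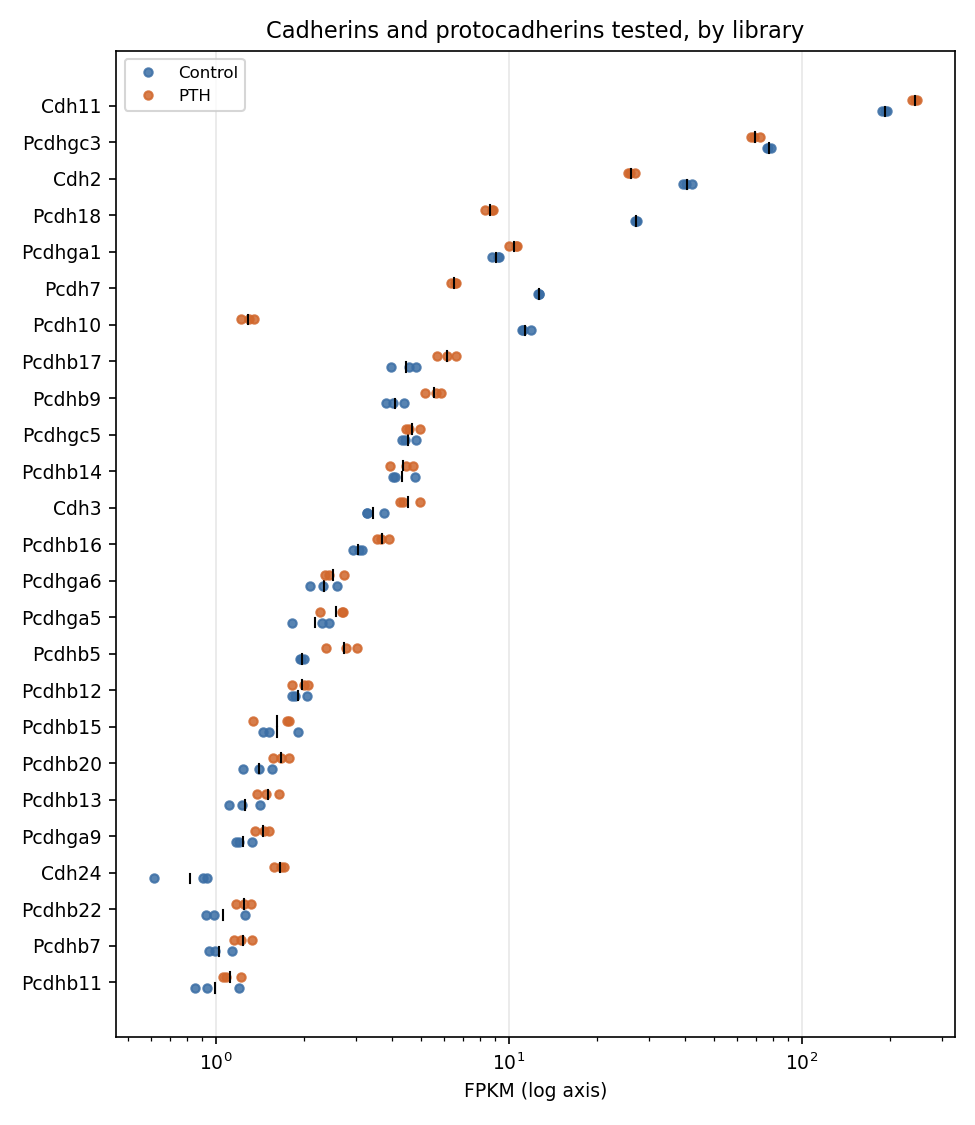
FPKM on a log axis of the 25 tested members, in order of their mean over the 6 libraries, with 1 point per library (blue Control, orange PTH) and a black tick at the group mean. Cdh11 leads in every library, and the widest gaps between the groups are those of Pcdh10 and Pcdh18.

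The upstream sequence of 4 non-clustered protocadherins is shown: Pcdh10, Pcdh18 and Pcdh7, the 3 that were tested and lower with PTH, and Pcdh19, which was higher and lay just below the filter. The sequences are RefSeq's, from build GRCm38.p6, and run over the 250 bases before the annotated start, 5′ to 3′ on the gene's strand. Capitals mark matches on either strand to TGACG, the half-site of the cyclic AMP response element (cyclic AMP is a second messenger of the PTH receptor), and to CCAAT, the CCAAT box, which do not overlap each other here.
Pcdh10, chr3:45378148-45378397, plus strand: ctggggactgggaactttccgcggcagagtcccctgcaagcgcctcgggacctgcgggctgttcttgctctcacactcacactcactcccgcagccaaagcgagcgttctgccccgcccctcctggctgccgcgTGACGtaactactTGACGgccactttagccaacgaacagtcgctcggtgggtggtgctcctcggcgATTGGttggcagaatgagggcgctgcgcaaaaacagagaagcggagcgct
Pcdh18, chr3:49757317-49757566, minus strand: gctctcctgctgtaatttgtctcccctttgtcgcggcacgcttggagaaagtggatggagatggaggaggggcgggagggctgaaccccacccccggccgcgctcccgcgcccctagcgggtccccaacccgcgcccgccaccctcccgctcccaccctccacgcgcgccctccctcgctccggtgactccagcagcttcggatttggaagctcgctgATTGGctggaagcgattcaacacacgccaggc
Pcdh7, chr5:57717831-57718080, plus strand: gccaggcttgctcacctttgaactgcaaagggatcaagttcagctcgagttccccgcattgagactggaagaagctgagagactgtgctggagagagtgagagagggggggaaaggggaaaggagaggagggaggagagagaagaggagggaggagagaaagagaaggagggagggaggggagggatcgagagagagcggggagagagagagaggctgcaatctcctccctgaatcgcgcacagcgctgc
Pcdh19, chrX:133688994-133689243, minus strand: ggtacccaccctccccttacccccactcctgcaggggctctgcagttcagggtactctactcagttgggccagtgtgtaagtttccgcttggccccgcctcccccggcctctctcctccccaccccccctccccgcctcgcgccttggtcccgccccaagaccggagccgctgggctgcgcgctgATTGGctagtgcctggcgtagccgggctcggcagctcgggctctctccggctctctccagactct

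The Pcdh10 sequence held 2 matches to TGACG, at -116 and -103 relative to the start, and the other 3 sequences held none. Of 32851 promoter sequences of this length 17.8% held a match to TGACG. A match to CCAAT lay at -50 in Pcdh10, -32 in Pcdh18 and -65 in Pcdh19, while the Pcdh7 sequence had none, against 33.8% of all promoters. The GC box GGGCGG was matched once in Pcdh10, Pcdh18 and Pcdh19 (32.7% of all promoters), and neither the full element TGACGTCA (1.55%) nor the TATA box TATAAA (12.4%) was matched in any of the 4. GC content was 63.2% in Pcdh10, 68% in Pcdh18, 58.4% in Pcdh7 and 69.2% in Pcdh19, against a median of 52.4%. CG dinucleotides numbered 22, 23, 7 and 16 in the same order, against a median of 6. These matches are letters in a window, not measured binding.

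The 3 tested non-clustered protocadherins all fell, by the largest changes in log2(FPKM + 1) of any tested member. Pcdh10 is a delta protocadherin whose tail binds the WAVE complex component Nap1, and it lies at chr3:45182320-45238501 (mm9, as all gene coordinates below). Its values were 11.1, 11.9 and 11.2 FPKM in Control replicates 1, 2 and 3 and 1.22, 1.35 and 1.30 FPKM in PTH replicates 1, 2 and 3. The highest PTH value was far below the lowest Control value. The ratio of Control to PTH in mean FPKM was 8.82, and the change in log2(FPKM + 1) was -2.43 ± 0.044 (SE, limma adjusted p = 6.34e-08). The entry overlaps 1700027H10Rik, whose mean was 0.665 FPKM, and the counting is not stated to use strand.

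Pcdh18, another delta protocadherin on the same chromosome (chr3:49547218-49561238), was the most abundant of the non-clustered genes. It had 26.9, 27.1 and 27.3 FPKM in the Control libraries and 8.28, 8.86 and 8.78 FPKM in the PTH libraries. The Control values lay within a narrow range and the groups did not overlap. The ratio of Control to PTH was 3.14 and the log2 change -1.54 ± 0.034 (SE, limma adjusted p = 1.29e-07).

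Pcdh7 is a delta protocadherin whose tail binds a phosphatase, PP1 alpha (chr5:58109260-58523479). Its 3 Control libraries had 12.7, 12.7 and 12.6 FPKM and its PTH libraries 6.57, 6.37 and 6.61. These groups were also apart, by a smaller factor. The ratio was 1.94 and the log2 change -0.86 ± 0.029 (SE, limma adjusted p = 8.77e-07). The falls thus differed in size, and the ratio of Pcdh10 to Pcdh7 within a library, which a factor common to all entries of a library cannot alter, was 0.873 to 0.940 in Control and 0.186 to 0.212 in PTH.

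The 3 falls were called with log2 changes from -3.05 to -2.41 for Pcdh10, -1.70 to -1.52 for Pcdh18 and -1.01 to -0.85 for Pcdh7 in all 14 alternatives. Over all entries tested, 6.29% were called lower and at least 2-fold lower in mean FPKM, as were Pcdh10 and Pcdh18 among the 25 members.

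**Figure D2:**
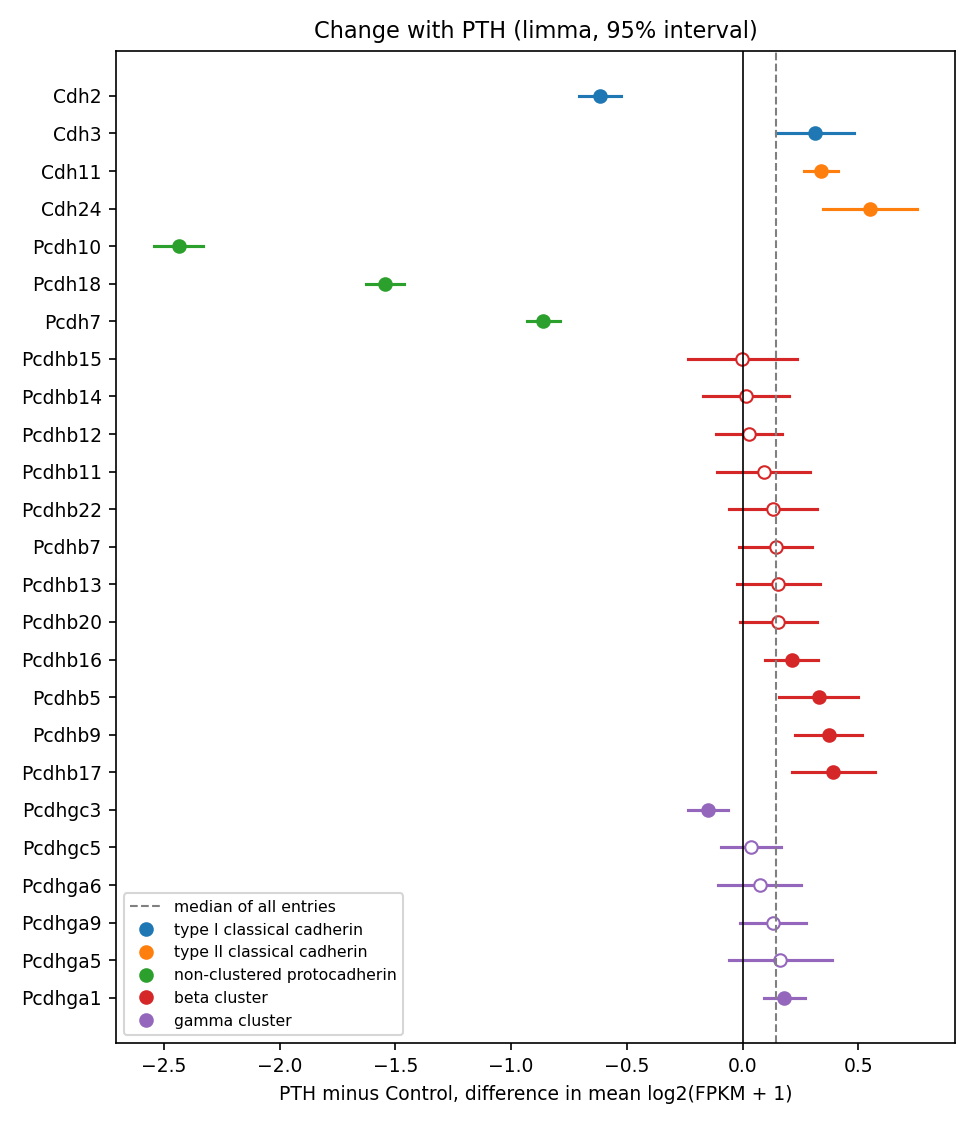
Difference between PTH and Control in mean log2(FPKM + 1) for the 25 tested members, grouped by family, with limma's 95% interval. Filled points were called, open points were not, and the dashed line is the median of all 11900 entries (0.15). Pcdh10, Pcdh18 and Pcdh7 lie far to the left, and most clustered genes lie near the dashed line.

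Among the classical cadherins the 2 most abundant moved in opposite directions. Cdh11 (chr8:105156895-105309011) had the highest level of any member in every library. It had 194.7, 188.5 and 192.9 FPKM in Control and 246.6, 238.4 and 243.8 FPKM in PTH. Every PTH value was above every Control value, by a modest factor. The ratio of PTH to Control was 1.26, and the log2 change 0.34 ± 0.031 (SE, limma adjusted p = 8.23e-05) was above the median of all entries. Under median-of-ratios scaling it was 0.17 and still called, the smallest value over the 14 alternatives.

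Cdh2 (chr18:16747386-16967558) fell. Its Control libraries had 40.4, 39.4 and 42.2 FPKM and its PTH libraries 27.0, 25.6 and 25.9. The groups were well apart, with a ratio of Control to PTH of 1.55 and a log2 change of -0.62 ± 0.038 (SE, limma adjusted p = 1.20e-05). It was called lower in all 14 alternatives, with changes from -0.78 to -0.59. The ratio of Cdh11 to Cdh2 within a library was 4.82, 4.79 and 4.57 in Control and 9.14, 9.32 and 9.40 in PTH, a 1.96-fold difference in means that a common factor per library leaves as it is. Under quantile normalization, which is not such a factor, the log2 changes were 0.27 for Cdh11 and -0.76 for Cdh2. An exact two-sided permutation test of the ratio of Cdh11 to Cdh2 gave p = 0.1, the smallest p that 3 against 3 samples allow. The ratio was chosen after its values were seen, so this p lends no support. Cdh11 alone made up 44.7% to 45.7% of the summed FPKM of all members in Control and 55.5% to 57.1% in PTH.

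Cdh3 (P-cadherin) and Cdh24, a type II cadherin, were low and higher with PTH. Cdh3 had 3.76, 3.30 and 3.29 FPKM in Control and 4.35, 4.99 and 4.25 FPKM in PTH, so that the groups were apart by less than the range within PTH. Its log2 change was 0.31 ± 0.069 (SE, limma adjusted p = 0.00578). Median-of-ratios scaling ended the call, with a change of 0.18 (limma adjusted p = 0.0513, range over the 13 alternatives that tested it 0.00483 to 0.0513). Cdh24 had 0.905, 0.617 and 0.934 FPKM in Control and 1.71, 1.67 and 1.57 FPKM in PTH, a ratio of 2.02 and a log2 change of 0.55 ± 0.084 (SE, limma adjusted p = 0.00104). Since its Control mean was below 1 FPKM, it was tested only through the group where it was high, and its call lends no support. Of all entries 5.65% were called higher and at least 2-fold higher.

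**Figure D3:**
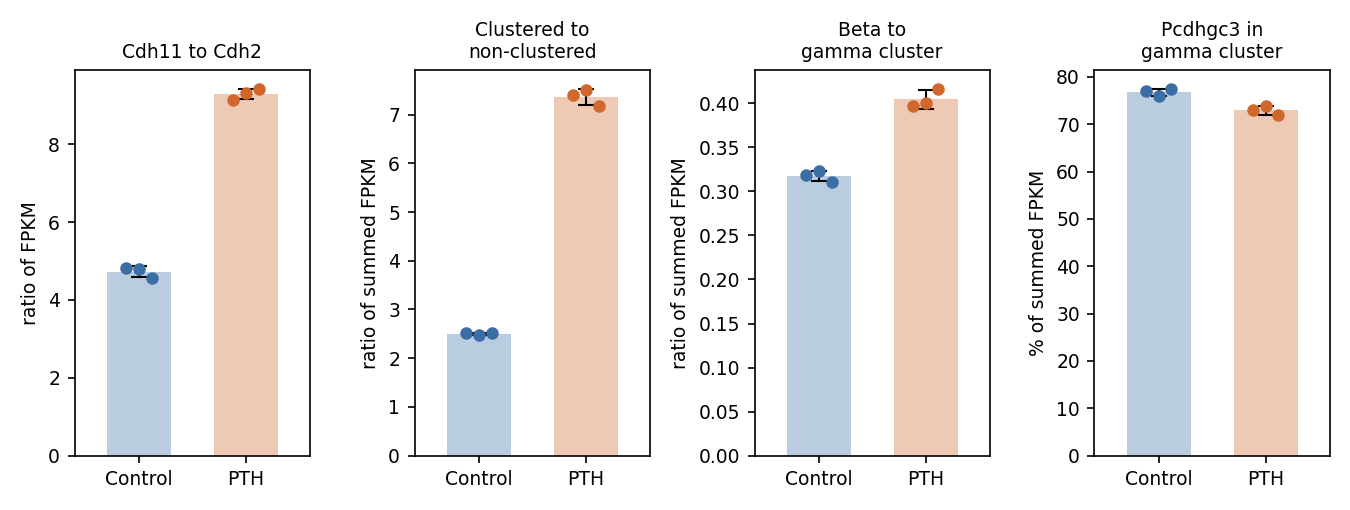
Quantities formed within each library, which a common factor per library does not alter: the ratio of Cdh11 to Cdh2, the ratio of summed FPKM of clustered to non-clustered protocadherins, the ratio of the beta to the gamma cluster, and the share of Pcdhgc3 in the gamma cluster in percent. Bars are means, error bars SD, and points the 3 libraries of each group. The groups do not overlap in any of the 4, and Cdh11 to Cdh2 goes from 4.73 to 9.29.

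The clustered protocadherins, which lie together on chromosome 18, together had 133.4 ± 1.09 FPKM (SD, n = 3) in Control and 134.2 ± 3.09 in PTH. By library the sum was 132.1, 134 and 134 FPKM in Control and 132.1, 137.7 and 132.6 FPKM in PTH, and the groups overlapped (exact two-sided permutation p = 0.8). This holds for the values as deposited. The size factors of median-of-ratios scaling were 0.921 to 0.960 in Control and 1.05 to 1.06 in PTH. Dividing by them lowers the PTH sum relative to Control, and the test was not repeated on that scale. The non-clustered genes together had 52.6 to 54.1 FPKM in Control and 17.9 to 18.5 FPKM in PTH. The ratio of clustered to non-clustered protocadherins accordingly went from between 2.48 and 2.52 to between 7.17 and 7.51.

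In the gamma cluster 1 entry stood above the rest. Pcdhgc3, whose first exon is one of the C-type exons near the constant exons, had 76.4, 76.3 and 78.3 FPKM in Control and 68.6, 72.2 and 67.1 FPKM in PTH. This made it the second most abundant member. The groups were apart, at a ratio of PTH to Control of 0.900 and a log2 change of -0.15 ± 0.036 (SE, limma adjusted p = 0.00806). It was called in all 14 alternatives, and the change was -0.31 under median-of-ratios scaling and -0.30 under quantile normalization. Its share of the cluster's summed FPKM was 76.0% to 77.4% in Control and 72.0% to 73.8% in PTH. The other 21 gamma entries summed to 22.8 to 24.1 FPKM in Control and 25.4 to 26.1 FPKM in PTH. The whole cluster summed to 99.2, 100.4 and 101.2 FPKM in Control and 94.0, 97.9 and 93.1 FPKM in PTH. This was a ratio of PTH to Control of 0.948 (exact two-sided permutation p = 0.1, the smallest possible).

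The values of single gamma entries are uncertain because the 22 entries overlap one another and share their constant exons. They start at 22 different places between 37821599 and 37979200 and all end between 38001517 and 38001526. In the GENCODE M21 models of these genes, 3 short coding exons follow a first coding exon of 2364 to 2460 bases. Fragments from the shared part had to be divided between entries by the authors' software. The bounds varied between entries, and few implied fragments mean wide bounds, not necessarily few reads. Pcdhga7 had 33 in Control and 2 in PTH at a mean of 0.402 FPKM in each group. The mean of Pcdhga9, 1.34 FPKM, rests on 23 implied fragments in Control and 29 in PTH, while the beta gene Pcdhb13, at 1.38 FPKM, rests on 298 and 475. Pcdhgc5, at 4.59 FPKM, rests on 957 and 1301, close to the 950 and 1274 of the beta gene Pcdhb14 at 4.33 FPKM.

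Pcdhga1 was called higher, at 9.08 ± 0.261 FPKM (SD, n = 3) in Control and 10.4 ± 0.339 in PTH (log2 change 0.18, limma adjusted p = 0.00427). That call was lost under TPM (0.12, adjusted p = 0.0645), quantile normalization (0.056, adjusted p = 0.268) and median-of-ratios scaling (0.031, limma adjusted p = 0.528), and over its 14 alternatives the adjusted p ranged from 0.00344 to 0.528. Pcdhgc5, Pcdhga6, Pcdhga5 and Pcdhga9 were not called, with log2 changes of 0.037, 0.074, 0.16 and 0.13. Pcdhga9 was called without Control replicate 1 (limma adjusted p = 0.0475), under quantile normalization and without the variance trend (range over 13 alternatives 0.0306 to 0.575). The other 16 gamma entries had means below 1 FPKM, from 0.0400 for Pcdhga10 to 0.726 for Pcdhgb8.

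Genes of the beta cluster have 1 exon each in the GENCODE models and share none, so their values rest on their own sequence, although close paralogs can still divide fragments. The cluster summed to 31.6, 32.4 and 31.5 FPKM in Control and 37.3, 39.1 and 38.8 FPKM in PTH, a ratio of 1.21 (exact two-sided permutation p = 0.1, the smallest possible). Under median-of-ratios scaling the log2 ratio of the sums was 0.11 in place of 0.27 (exact two-sided permutation p = 0.2). The ratio of the beta to the gamma cluster within a library was 0.311 to 0.323 in Control and 0.397 to 0.417 in PTH.

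Of the 22 beta genes 12 were tested, 4 of these were called higher and none lower, against 50.3% and 23.5% of all entries, and their median log2 change was 0.15, as for all entries. Pcdhb17 had 4.56, 3.97 and 4.84 FPKM in Control and 6.62, 6.17 and 5.70 FPKM in PTH (log2 change 0.39 ± 0.075 SE, limma adjusted p = 0.00294). Pcdhb9 had 4.38, 3.82 and 4.03 against 5.18, 5.66 and 5.87 FPKM (0.37 ± 0.060, limma adjusted p = 0.00132). In both genes the Control libraries varied by about as much as the PTH libraries, and the groups were apart. Pcdhb5 (1.97 ± 0.0374 FPKM against 2.73 ± 0.329, SD, n = 3) and Pcdhb16 (3.06 ± 0.114 against 3.70 ± 0.179) were the other called genes. Under median-of-ratios scaling Pcdhb16 was no longer called (limma adjusted p = 0.194, range over 13 alternatives 0.00386 to 0.194), which left 3.

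Pcdhb14 at a mean of 4.33 FPKM, Pcdhb12 at 1.94 and Pcdhb15 at 1.62 had overlapping groups and log2 changes of 0.015, 0.027 and -0.00090, the signs of which turned under some alternatives. Pcdhb20, Pcdhb13, Pcdhb22, Pcdhb7 and Pcdhb11 had changes of 0.092 to 0.16 and were not called. Without Control replicate 2, the shallowest library by implied fragments, 8 beta genes were called, Pcdhb20, Pcdhb13, Pcdhb22 and Pcdhb7 in addition. That fit called 5688 of all entries higher, against 5988 with all libraries. Pcdhb7 was also called under quantile normalization (limma adjusted p = 0.0350) and without the variance trend (0.0370), within a range of 0.0350 to 0.504 over 13 alternatives. The 10 beta genes not tested ran from Pcdhb1, listed at 0 in every library, to Pcdhb19 at 0.901 FPKM. Of these, Pcdhb18, Pcdhb3, Pcdhb4 and Pcdhb6 had groups that did not overlap, higher with PTH.

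**Figure D4:**
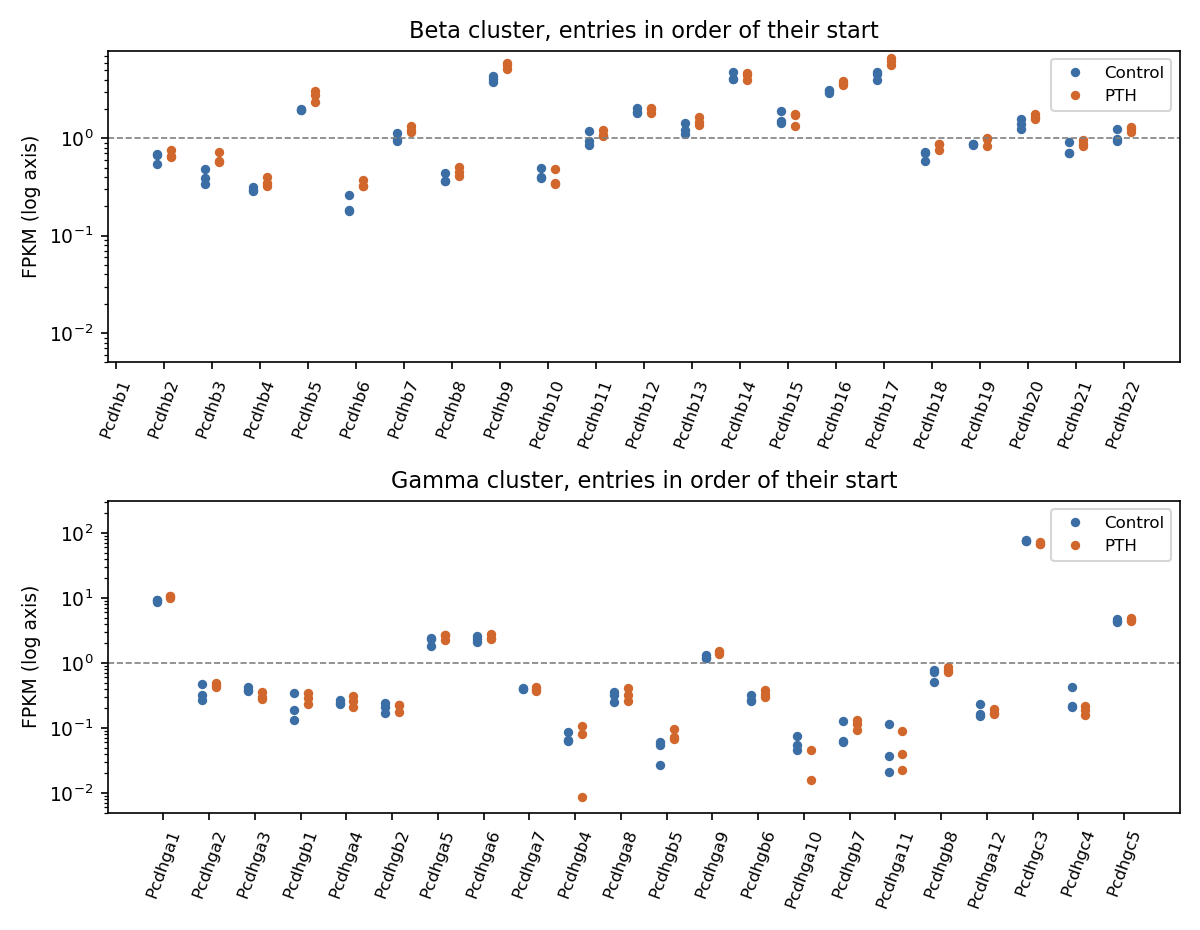
FPKM on a log axis of every entry of the beta and gamma clusters in the order of their starts on the chromosome, with 1 point per library (blue Control, orange PTH) and a dashed line at 1 FPKM. Values below 0.005 FPKM are not drawn, which leaves Pcdhb1 empty and 1 PTH library of Pcdhga10 without a point. Pcdhgc3 stands above all other entries, near 70 FPKM.

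The alpha cluster was nearly silent. Its 14 entries share their last exons like those of the gamma cluster, and none reached a mean of 1 FPKM. The sum was 1.33, 1.22 and 1.41 FPKM in Control and 0.815, 0.663 and 0.713 FPKM in PTH, a ratio of PTH to Control of 0.554 (exact two-sided permutation p = 0.1, the smallest possible). Pcdhac2 made up 61.7% to 74.1% of the sum in Control and 43.8% to 52.0% in PTH, at 0.888, 0.750 and 1.05 FPKM in Control and 0.357, 0.345 and 0.313 in PTH. That entry rests on 271 implied fragments in Control and 119 in PTH. The other alpha entries were lower, led by Pcdha9 at a mean of 0.140 FPKM, and the entry Pcdha4-g that spans the clusters had no implied fragment.

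Some members below the filter showed larger ratios than most tested ones. They had no test in the main comparison, and at low levels each estimate rests on few fragments. Cdh17 is the liver-intestine cadherin, with 7 extracellular repeats and a short tail. It had 0.0967, 0.112 and 0.0635 FPKM in Control and 1.49, 1.55 and 1.64 FPKM in PTH, on 20 and 459 implied fragments. All PTH libraries exceeded 1 FPKM and no Control library came near it, at a ratio of 17.2. Pcdh19, an X-linked delta protocadherin that works with N-cadherin in zebrafish, had 0.360, 0.397 and 0.426 FPKM in Control and 1.54, 1.59 and 1.59 FPKM in PTH, a ratio of 3.98. Pcdh20 went the other way, from 1.37, 1.70 and 1.31 FPKM in Control to 0.144, 0.107 and 0.126 FPKM in PTH, a ratio of Control to PTH of 11.6.

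The order of Pcdh10 and Pcdh19, both delta protocadherins, thus turned, but their PTH means were close, at 1.29 and 1.57 FPKM. Pcdh19 stayed far below the Control mean of Pcdh10, 11.4 FPKM. The ratio of Pcdh10 to Pcdh19 within a library was 30.8, 30.0 and 26.2 in Control and 0.793, 0.851 and 0.821 in PTH. Cdh23, a protein of the tip links of hair cells, had 0.444 ± 0.0339 FPKM (SD, n = 3) in Control and 0.278 ± 0.0351 in PTH, and overlaps 2 other entries, the higher at a mean of 1.23 FPKM. Cdh13 (T-cadherin, which has a lipid anchor in place of a tail) had 0.717 ± 0.147 and 0.615 ± 0.0379 FPKM, and its groups overlapped.

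Of the 60 members below the filter with a value above 0, the groups did not overlap for 9 that were higher and 9 that were lower with PTH. Among all entries of that kind the shares were 12.1% and 21.1%. When the filter on the mean was dropped, 11 of these members were called, Cdh17, Pcdh19, Pcdhb3, Pcdhb6 and Cdh10 higher and Pcdh20, Pcdhac2, Cdh23, Pcdh1, Pcdh15 and Cdh19 lower. That fit took in the 11900 entries of the main comparison and 6438 below the filter and above 0. It called 6406 of them higher and 3748 lower. Some calls lie at the floor, such as Cdh10 on 2 and 14 and Cdh19 on 8 and 0 implied fragments in Control and PTH.

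**Figure D5:**
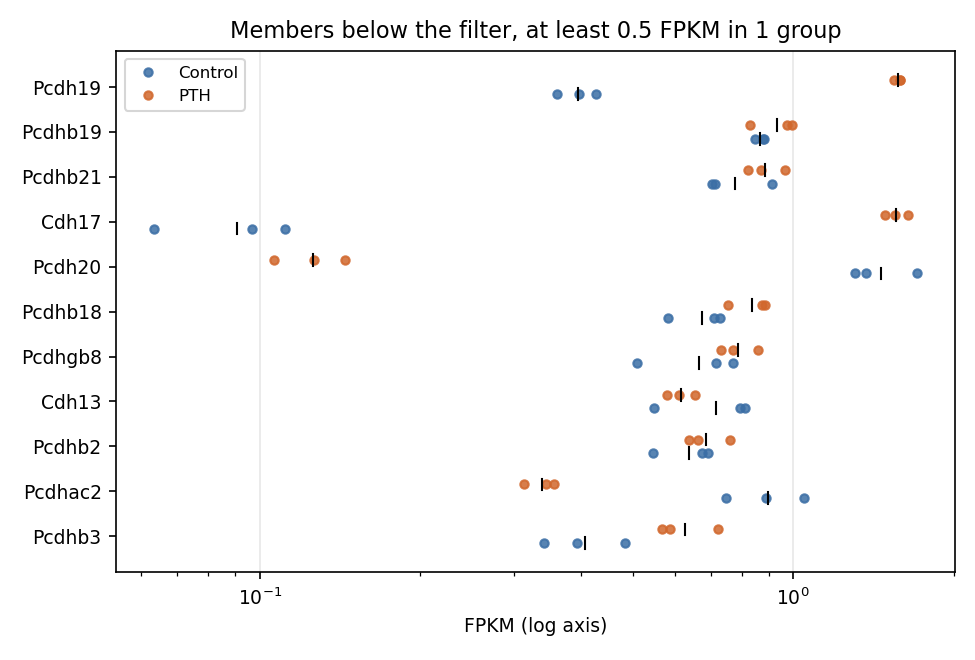
FPKM on a log axis of the untested members with at least 0.5 FPKM in 1 group, with 1 point per library (blue Control, orange PTH) and a black tick at the group mean. Pcdh19 and Cdh17 are far higher in PTH, Pcdh20 and Pcdhac2 are lower, and Pcdhb18 and Pcdhb3 are higher in PTH by less.

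The cadherins that mark endothelium, epithelia, muscle and glia were at or near 0. Cdh5, the cadherin of endothelium, was listed at 0 in every library, as were Cdh4, Cdh6, Cdh7, Cdh8, Cdh9, Cdh12, Pcdh8 and Pcdhb1. Cdh1, the cadherin of epithelia, had 0.0297 FPKM in Control and 0.00274 in PTH, and Cdh15, the cadherin of muscle, 0.0461 and 0.0170. Cdh19, known from glia, had 0.0432 FPKM in Control and was listed at 0 in PTH. Each list of other markers of these cells had 1 tested gene. Of 9 endothelial markers this was Egfl7, which rose, with Tie1 and Cldn5 listed at 0 and a summed level of 4.58 to 5.73 FPKM in Control and 6.05 to 6.94 in PTH. Of 9 muscle markers it was Acta1, which rose from 12.3 to 18.4 FPKM, with Myod1 and Myf5 listed at 0 and sums of 14.6 to 15.2 against 18.9 to 19.5 FPKM. The untested muscle markers Chrna1 (1.37 and 0.432 FPKM) and Des (1.16 and 0.306) were lower in every PTH library than in every Control library. Of 9 epithelial markers it was Epcam, which fell, with Krt18 and Krt5 listed at 0 and sums of 5.79 to 6.5 against 0.374 to 0.481 FPKM. Of 7 glial markers it was S100b, which fell, with Sox10 and Foxd3 listed at 0 and sums of 2.83 to 3.02 against 0.933 to 1.17 FPKM. Epcam and S100b had PTH means of 0.14 and 0.45 FPKM and passed the filter only through their Control values.

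The remaining members outside the clusters were Cdh10, Cdh16, Cdh18, Cdh20, Cdh22, Cdh26, Pcdh1, Pcdh9, Pcdh11x, Pcdh12, Pcdh15 and Pcdh17, with means over the 6 libraries of 0.00128 FPKM for Pcdh12 to 0.177 for Cdh18. Of these, Pcdh1, Pcdh15 and Cdh26 had lower values in every PTH than in every Control library, and Cdh10 and Cdh20 higher ones. These 5 rest on 1 to 27 implied fragments a group.

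The counts in the lists of partner genes that follow stand beside 50.3% higher and 23.5% lower of all 11900 entries. Of these entries 5988 were higher as deposited, 5154 with TPM, 4613 with quantile normalization and 4060 with median-of-ratios scaling. Genes of proteins that bind cadherin tails changed in the same libraries. Ctnnb1, the gene of beta-catenin, fell from 350.9 ± 5.88 to 235 ± 3.77 FPKM (SD, n = 3) and Ctnnd1, that of p120-catenin, from 98.6 ± 1.61 to 72.4 ± 0.774. Jup, the gene of plakoglobin, fell from 4.56 ± 0.220 to 1.89 ± 0.296 and Ctnnal1 from 2.75 ± 0.165 to 1.83 ± 0.161. Among catenins and plakophilins 7 were tested, of which 5 fell and 2 rose, with a median log2 change of -0.41, and these counts held under each scaling. These 4 falls had limma adjusted p values of 6.89e-06 for Ctnnb1, 1.39e-05 for Ctnnd1, 6.77e-05 for Jup and 0.00103 for Ctnnal1.

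Nectins and linkers of the adherens junction were divided. Lima1, an actin-binding protein that joins alpha-catenin, rose from 36.7 ± 0.590 to 78.6 ± 0.194 FPKM and Pvr, a nectin-like receptor, from 6.96 ± 0.476 to 15.1 ± 0.699. Lmo7, which binds afadin, fell from 16.3 ± 0.632 to 6.38 ± 0.502 and the scaffold gene Magi2 from 2.83 ± 0.121 to 1.02 ± 0.0389. The list had 12 tested genes, 8 of them higher and 4 lower, and another scaling left 4 lower and 4 to 7 higher.

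Other members of the cadherin superfamily included Fat1, a giant atypical cadherin, which fell from 191.9 ± 10.2 to 58.0 ± 4.19 FPKM, and Fat3, which fell from 12.7 ± 0.942 to 4.73 ± 0.264. Dchs1, the ligand of Fat4, rose from 1.90 ± 0.223 to 3.54 ± 0.145 and Clstn1, a calsyntenin, from 18.0 ± 0.671 to 20.9 ± 0.516. In this list 5 genes were tested, 2 higher, 2 lower and 1, Fat4, without a call. With median-of-ratios scaling or quantile normalization 1 was higher and 3 lower. The desmosomal cadherins Dsc1, Dsc2, Dsc3, Dsg1a, Dsg1b, Dsg1c and Dsg4 were listed at 0 in every library.

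Among repressors of classical cadherin genes 5 were higher and 2 lower. Snai1, a repressor of Cdh1 in epithelia, rose from 16.8 ± 1.33 to 118.3 ± 5.48 FPKM, Foxc2 from 0.985 ± 0.0749 to 10.6 ± 0.954, Zeb1 from 5.41 ± 0.304 to 18.3 ± 0.283 and Twist1 from 14.4 ± 1.00 to 28.0 ± 1.42. Snai2, the most abundant of them in Control, fell from 73.5 ± 2.26 to 63.2 ± 3.31 and Zeb2 from 21.8 ± 0.620 to 17.6 ± 0.296 (limma adjusted p = 0.00496 and 0.000195). The 7 tested genes had a median log2 change of 0.92, and the counts held under each scaling. For Snai1, Foxc2, Zeb1 and Twist1 the limma adjusted p was at most 1.56e-05. Foxc2 passed the filter only through its PTH values.

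Proteases that cut cadherins were mixed. Adam9 rose from 32.4 ± 0.901 to 72.5 ± 1.14 FPKM and Furin, which removes the prodomain of cadherins, from 28.2 ± 1.83 to 46.4 ± 0.679. Adam10, the main sheddase of Cdh2, fell from 35.8 ± 0.176 to 29.8 ± 0.484 and Adam15 from 44.7 ± 1.34 to 36.5 ± 0.214. All 10 were tested, with 5 higher, 3 lower and 2 without a call. Under TPM 3 rose and 4 fell, and under the other 2 scalings 2 rose and 5 fell. The count of rises was 3 without Control replicate 2, Control replicate 3, PTH replicate 1 or PTH replicate 3.

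Factors that act on the promoters of clustered protocadherins, such as cohesin subunits and DNA methyltransferases, were higher for 11 of 12 tested genes, against 50.3% of all entries, a count of 9 with TPM and 7 with either of the remaining scalings. Dnmt1 rose from 12.1 ± 0.540 to 22.8 ± 1.86 FPKM, and the cohesin genes Stag2 from 21.0 ± 0.440 to 27.7 ± 0.233 and Rad21 from 35.1 ± 1.31 to 46.0 ± 1.84. Dnmt3a fell from 7.55 ± 0.300 to 4.88 ± 0.125.

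Effectors of protocadherins held the steepest fall among these partners. Cyfip2, a subunit of the WAVE complex that drives actin branching, had 25.2, 25.7 and 25.7 FPKM in Control and 0.730, 0.669 and 0.583 FPKM in PTH, a log2 change of -4.00 ± 0.043 (SE, limma adjusted p = 1.07e-08). Its PTH values were below 1 FPKM, so it passed the filter only through its Control values. Ptk2b, a kinase bound by clustered protocadherins, rose from 3.31 ± 0.164 to 8.18 ± 0.198 FPKM, and the WAVE genes Wasf1 from 1.31 ± 0.0995 to 3.67 ± 0.406 and Wasf2 from 18.6 ± 1.08 to 25.6 ± 0.216. The list had 9 tested genes, 7 higher and 2 lower, and another scaling left 2 lower and 4 to 6 higher.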

How the data were processed

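RNA of 6 wells (3 Control, 3 PTH) was sequenced, all libraries on 1 lane, after preparation with a TruSeq kit whose reads carry no strand information. Per the labels, CASAVA 1.8, TopHat, Bowtie2, SAMtools and Cuffdiff were used on build mm9. For other versions, the annotation and the strand setting: not given in the sources used here. The authors deposited FPKM per gene with a lower and an upper bound, 1 table per library, and a table of their own group comparison (FPKM per group, fold change, p and q values), which was not used. Groups come from the labels, which name no separate cultures. The p-values therefore cover the spread between wells alone, and this may be technical.

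Col1a1 and Col1a2, without an estimate in Control, stayed out of all tests. No member had a failed or flagged estimate. For 11900 entries with a mean of at least 1 FPKM, log2(FPKM + 1) was fitted with limma 3.58.1 in R 4.3.3 (eBayes with trend) and a call needed an adjusted p (Benjamini-Hochberg, over all tested entries) below 0.05. Changes on this scale understate those of low genes. Implied fragments are the square of FPKM over its standard error, taken as the upper bound minus FPKM, divided by 2. They measure the width of the bounds and are not counts of reads. Cdh3, at a higher FPKM with PTH, had 671 in Control and 535 in PTH. What the bounds hold besides counting error was not tested, and they are not read as the spread between wells. The median half-width of the bounds was 7.04% to 9.68% of the FPKM. Listed starts were read as 0-based and printed 1-based: end minus start equalled the RefSeq length for 8687 of 20471 symbols, against 527 with 1 base added. Promoters were matched by symbol for 22 of the 94 members. The fit was tested on simulated data.

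Named were all members with a mean of at least 1 FPKM with their test, those below without, and up to 4 called genes of each partner list with the largest change. Egfl7, Acta1, Epcam, S100b, Chrna1, Des, Fat4, Snai2 and Zeb2 were chosen after their values were seen. So were Pdpn, Alpl, Ibsp, Bglap, Sost, Cidec, Acan, Ctsk and the ratios within a library. The members and lists were chosen with earlier results of these data known. Alternatives were another pseudocount (0.1), filter (none, or 5 FPKM), scaling (TPM, median-of-ratios, quantile), no variance trend, a replicate block, and each replicate left out.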

Additional observations from a re-analysis of the deposited data

How the results depend on the processing

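Of the 25 tested members 12 kept direction and call in every alternative that tested them, among them Cdh11, Cdh2, Pcdh10, Pcdh18, Pcdh7 and Pcdhgc3. Members called higher numbered 8, but 13 without the filter, 3 with a mean of at least 5 FPKM and 5 under median-of-ratios scaling, and 8 to 12 with 1 replicate left out. Of all entries 5988 were called higher, but 4773 with a mean of at least 5 FPKM and 4060 under median-of-ratios scaling. With 1 replicate left out it was 5487 to 5833 of all entries. Members called lower numbered 5, and 11 without the filter, where 6406 of all entries were called higher and 3748 lower. Of the partner genes 19 were lower, against 12 with a mean of at least 5 FPKM, where fewer genes are tested, and 40 were higher, against 25 under median-of-ratios scaling and 26 under quantile normalization. Elsewhere the cause was not tested.

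Signs turned only for members that were not called. Under TPM the log2 change was -0.0230 for Pcdhb12, -0.0473 for Pcdhb14 and -0.0235 for Pcdhgc5. Under median-of-ratios scaling it was -0.081 for Pcdhb12, -0.12 for Pcdhb14, -0.042 for Pcdhga6 and -0.099 for Pcdhgc5. Under quantile normalization it was -0.0531 for Pcdhb14, -0.0378 for Pcdhgc5 and 0.032 for Pcdhb15. With 1 replicate left out it ranged from -0.0305 to 0.0791 for Pcdhb14, from -0.0477 to 0.0797 for Pcdhb15 and from -0.00340 to 0.0746 for Pcdhgc5.

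The labels do not say whether the replicate numbers pair the wells. Deviations of same-numbered wells from their group means correlated at -0.079, 0.0016 and -0.038 across entries. Control replicates 1, 2 and 3 correlated best with PTH replicates 3, 1 and 2, at 0.117, 0.0865 and 0.0416. All of these are weak, so they cannot decide whether wells were paired. With the replicate number as a block 8 members were called higher and 5 lower, and 5869 and 2731 of all entries, against 5988 and 2791 without it. The members under 1 FPKM rest on at most 810 implied fragments a group. Some tested members rest on fewer, such as Cdh24 on 145 in Control and 376 in PTH. How far depth limits either kind was not tested.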
